A study of Mus musculus with 20 samples.

Results

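Leukotrienes and prostaglandins are made from arachidonic acid by a short series of enzymes, and 8 genes of these routes were followed in mouse bone marrow neutrophils. They are Alox5, Alox5ap, Lta4h and Ltc4s of the leukotriene route, the lipoxygenase gene Alox15, and Ptgs1, Ptgs2 and Hpgds of the prostanoid route. They were selected by symbol, and all 8 were found among the 24421 genes listed for each library. All 8 also passed the filter on low counts, which left 14030 genes for testing. RNA was sequenced from 20 libraries, 5 in each of 4 groups of female mice. WT mice were C57BL/6J. Bmal1Mye-/- mice (KO in the labels) carried a floxed Bmal1, listed as Arntl in the files, and Cre inserted in Lyz2, so the deletion was limited to cells in which Lyz2 had been active. Mice of either genotype were left untreated or received IMQ (imiquimod, an agonist of TLR7 and TLR8) on the skin of the ears for 6 weeks, 3 times per week as a 5% cream. IMQ-treated mice were 8 to 10 weeks old at the first application, and no age was given for the untreated mice. All libraries came from neutrophils purified by magnetic negative selection, and purity was checked by flow cytometry. Beyond the replicate numbers, the labels do not tie libraries to animals, so p-values measure the spread between these samples. The design asks what 6 weeks of IMQ and the Bmal1Mye-/- genotype changed, alone and together. WT mice were purchased, whereas Bmal1Mye-/- mice came from a cross kept at the study's own facility. Loss of Bmal1 therefore cannot be told apart here from the Cre insertion in Lyz2 or from the source of the mice.

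In the leukotriene route, 5-lipoxygenase (Alox5), helped by its activating protein (Alox5ap), converts arachidonic acid into leukotriene A4. This unstable intermediate becomes the neutrophil attractant leukotriene B4 through leukotriene A4 hydrolase (Lta4h), or the cysteinyl leukotriene C4 through leukotriene C4 synthase (Ltc4s). In the prostanoid route, the cyclooxygenases COX-1 (Ptgs1, usually constitutive) and COX-2 (Ptgs2, usually inducible) form prostaglandin H2, from which terminal synthases such as hematopoietic prostaglandin D synthase (Hpgds) make the active prostanoids.

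Each library held between 30782166 and 92613500 reads assigned to genes (median 66094896). Levels are given as CPM, counts scaled to a common library size with TMM factors, and as CPM per kilobase of exon (CPM/kb) where genes are compared with each other. The targeted gene Arntl had 0.895 to 1.71 CPM in untreated WT, 0.468 to 1.10 in untreated Bmal1Mye-/-, 0.562 to 1.87 in WT + IMQ and 0.337 to 1.52 in Bmal1Mye-/- + IMQ, so its total count did not separate the genotypes. Reads of the floxed exon are not counted apart in the files. Lyz2, the Cre locus, did separate them, at 2465 to 12033 CPM in the 10 WT libraries and 58.8 to 177 CPM in the 10 Bmal1Mye-/- libraries. Neutrophil markers led throughout: 9 of them summed to 97967 to 149716 CPM in 19 libraries and to 69375 CPM in Bmal1Mye-/- + IMQ replicate 1, which also stood apart on the second principal component. The neutrophil marker Ly6g was also on the list but had no matching symbol among the genes counted. In that library the 7 neutrophil precursor markers summed to 3151 CPM and the 6 monocyte markers to 2244 CPM, the highest values of the 20. Among the IMQ-treated libraries, WT + IMQ replicate 5 and Bmal1Mye-/- + IMQ replicate 2 lay within the range of the untreated libraries on the first principal component.

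The 8 genes spanned a wide range of levels in these cells. Per length and averaged over the 20 libraries, Alox5ap was the most abundant at 1159 CPM/kb, followed by Alox5 at 173 CPM/kb and Lta4h at 104 CPM/kb. The cyclooxygenases were lower, with 25.0 CPM/kb for Ptgs1 and 21.4 CPM/kb for Ptgs2. Alox15 (0.816 CPM/kb), Ltc4s (0.122 CPM/kb) and Hpgds (0.0419 CPM/kb) were far lower still. The order Alox5ap, Alox5, Lta4h held in every library but 1: in Bmal1Mye-/- + IMQ the ranges of Alox5 and Lta4h overlapped, and Alox5 was above Lta4h in 4 of 5 libraries. Ltc4s and Hpgds overlapped in each group, whereas Alox15 was above Ltc4s without overlap in both IMQ-treated groups. In untreated Bmal1Mye-/-, for example, Ltc4s ranged from 0 to 0.331 CPM/kb and Hpgds from 0.0157 to 0.109 CPM/kb. The 3 genes of leukotriene B4 synthesis thus led the members, and Ltc4s was near the bottom. This order covers the 8 members only. Outside them, Mgst2, listed among other leukotriene enzymes, was at 26.3 CPM/kb.

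**Figure D1:**
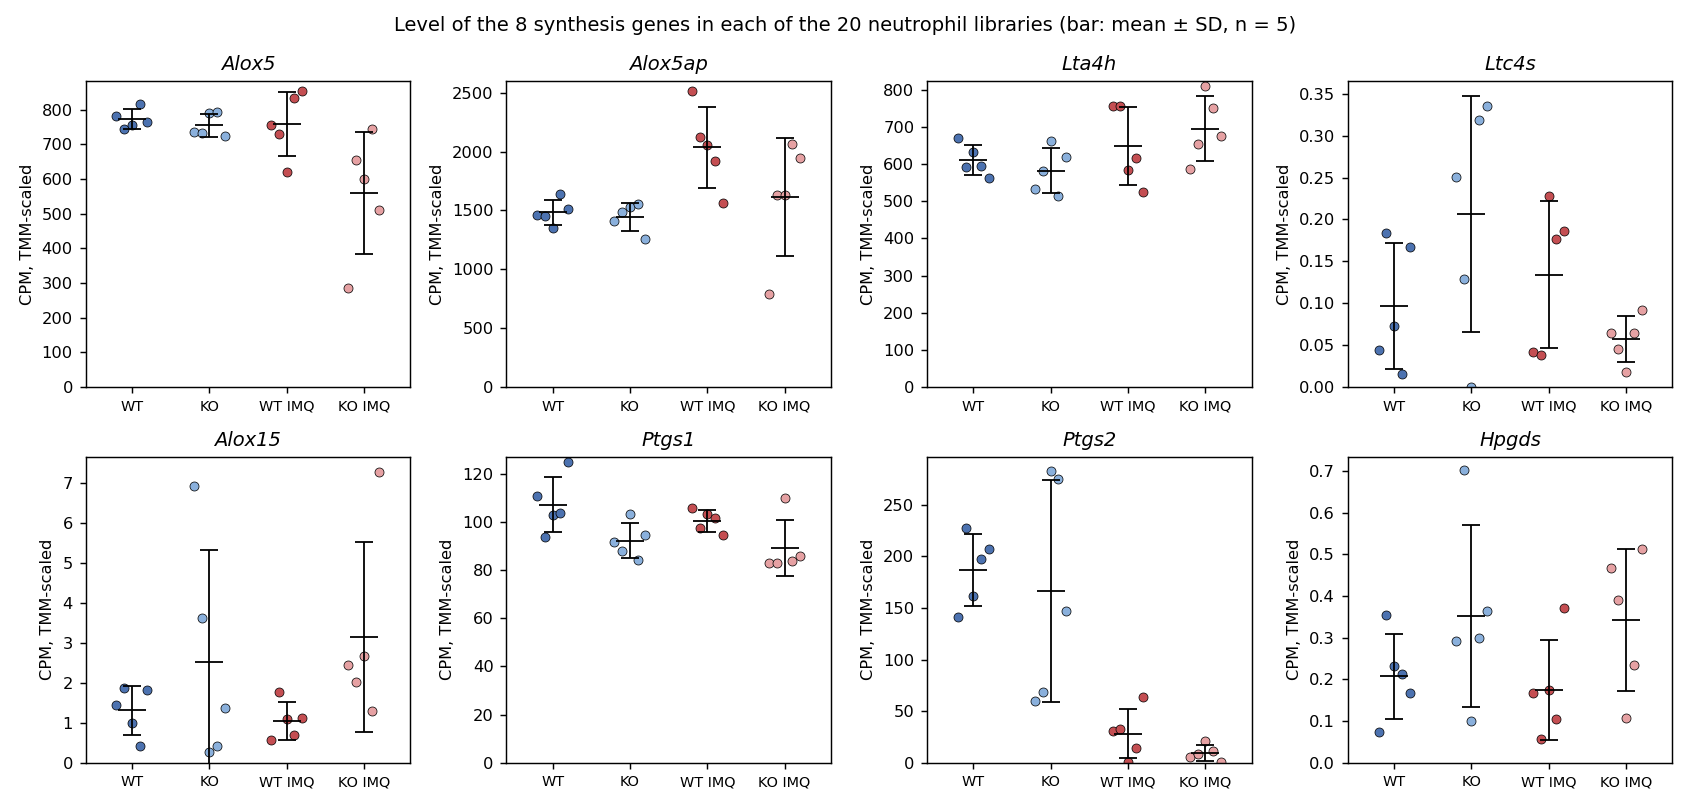
Level of each gene in every library as CPM after TMM scaling (linear axes from 0, 1 panel per gene), for untreated WT, untreated Bmal1Mye-/- (KO), WT + IMQ and Bmal1Mye-/- + IMQ, with a bar for the mean ± SD of 5 libraries. Ptgs2 is the gene whose IMQ-treated libraries lie apart from the untreated ones, at 0.507 to 64.0 CPM in WT and 1.14 to 21.3 CPM in Bmal1Mye-/-.

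Ptgs2, which encodes the inducible cyclooxygenase COX-2, was the member that moved most with IMQ. In untreated WT its level was 141, 227, 161, 197 and 207 CPM in replicates 1 to 5, and in WT + IMQ it was 30.7, 32.5, 0.507, 13.9 and 64.0 CPM. All 5 IMQ-treated WT libraries were below the lowest untreated one, although replicate 3 had only 29 reads and replicate 5 kept a level nearest to the untreated range. In untreated Bmal1Mye-/- the values were 59.8, 68.7, 282, 274 and 147 CPM, and in Bmal1Mye-/- + IMQ they were 5.70, 8.76, 21.3, 11.8 and 1.14 CPM. Here, too, the groups did not overlap, and the untreated libraries split into 2 low, 1 intermediate and 2 high values.

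With IMQ, Ptgs2 fell by 4.10 on the log2 scale (SE 0.834) in Bmal1Mye-/-, a 17.1-fold lower level (edgeR quasi-likelihood test, adjusted p = 0.00624). In WT the log2 fold change was -2.72 (SE 0.783), a 6.59-fold lower mean, and it did not pass the threshold (edgeR quasi-likelihood test, adjusted p = 0.0551). DESeq2 gave an adjusted p of 0.0105 for the WT change and a linear model on log2(CPM + 0.1) gave 0.0469. With each library left out, the edgeR quasi-likelihood test gave adjusted p of 0.0165 to 0.116. The lowest was without WT + IMQ replicate 5, which had the highest Ptgs2 of its group. Leaving out that library also raised the WT calls over all genes from 554 to 2045. The difference between the genotypes in this response was -1.38 on the log2 scale (SE 1.05) and was not past the threshold (interaction term in edgeR, adjusted p = 0.642). A single call in Bmal1Mye-/- therefore does not show a response that differs from that of WT. Because these are bulk libraries, fewer cells of a type and less RNA per cell cannot be told apart here.

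Of the 8 members, 0 were called in WT, where 3.95% of all tested genes were called in either direction, and 1 (Ptgs2, lower) was called in Bmal1Mye-/-, where 9.04% of tested genes were called lower and 23.5% in either direction. Ptgs2 was also the 1 member with ranges that did not overlap, in WT (3.31% of tested genes lower without overlap) and in Bmal1Mye-/- (9.31%). Over the members, the median log2 fold change with IMQ was -0.06 in WT and -0.06 in Bmal1Mye-/-, beside 0.03 and 0.02 over all tested genes. At an unadjusted p under 0.05 there were 2 members in WT and 4 in Bmal1Mye-/-, beside 3129 and 5518 of all 14030 tested genes. DESeq2 called 1 and 2 members, and in WT it called 1480 of all genes. In Bmal1Mye-/- the alternatives with all libraries called 2490 to 4190 of all genes. The IMQ and genotype comparisons share groups, so their values are not independent of each other.

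Marker genes of other cells were measured beside Ptgs2. Monocyte markers, whose cells can also express Ptgs2, summed to 798 to 904 CPM in untreated WT and 960 to 1517 CPM in WT + IMQ, mostly from Ly6c2. Of the 6, 2 had negative log2 fold changes in WT, among them Csf1r, with means of 177 CPM untreated and 104 CPM with IMQ, and none was called. In Bmal1Mye-/- the sums were 760 to 963 CPM untreated and 638 to 2244 CPM with IMQ, with 3 of 6 monocyte markers called higher, beside 14.4% of all tested genes. Megakaryocyte and platelet markers, 6 genes, summed to 26.4 to 92.4 CPM in untreated WT and 12.2 to 23.7 CPM in WT + IMQ. In Bmal1Mye-/- they summed to 24.1 to 102 CPM untreated and 11.7 to 53.6 CPM with IMQ. With IMQ, 5 of the 6 had negative log2 fold changes in each genotype. In WT 1 was called lower (1.6% of all tested genes) and 4 were lower without overlap (3.31%). In Bmal1Mye-/- 0 were called and 0 were without overlap. No monocyte or platelet marker was at 0 in any library. Their part in the Ptgs2 result was not tested.

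The RefSeq promoter table (GRCm38.p6) held a window of 250 bases before and 50 after the annotated start for 6 of the 8 members, Alox5, Lta4h, Ltc4s, Ptgs1, Ptgs2 and Hpgds. The Ptgs2 sequences are shown because Ptgs2 carries the IMQ result, and because BMAL1 with its partner CLOCK binds E-boxes. Both strands of each window were searched for the E-box CACGTG, the CRE TGACGTCA, the TATA sequence TATAAA, AP-1 TGANTCA, a kappaB consensus and the C/EBP sequence TTGCGCAA, the last of which was added after the Ptgs2 sequence had been read. Among the 6 windows, matches were found only in that of Ptgs2. The capitals mark the C/EBP match at bases -69 to -62 in the first sequence (chr1:150099781-150100030, plus strand) and the E-box at bases 17 to 22 after the start in the second (chr1:150100035-150100064, plus strand).
Ptgs2 upstream: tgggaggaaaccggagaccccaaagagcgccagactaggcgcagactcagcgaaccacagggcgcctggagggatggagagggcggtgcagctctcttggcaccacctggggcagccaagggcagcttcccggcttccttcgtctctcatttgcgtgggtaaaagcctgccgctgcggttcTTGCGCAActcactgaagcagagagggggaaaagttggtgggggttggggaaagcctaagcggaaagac
Ptgs2 E-box: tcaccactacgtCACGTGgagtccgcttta
Of 27025 promoter windows of this length, 7.24% held CACGTG and 0.185% held TTGCGCAA. The other sequences were in 1.88% (CRE), 14.2% (TATA), 7.93% (AP-1) and 1.62% (kappaB) of windows. A match describes letters in the sequence and is not evidence of binding.

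Ptgs1, the constitutive cyclooxygenase COX-1, kept a narrow range in all groups. Its mean was 107 ± 11.5 CPM (SD, n = 5) in untreated WT, 92.2 ± 7.26 in untreated Bmal1Mye-/-, 101 ± 4.54 in WT + IMQ and 89.1 ± 11.7 in Bmal1Mye-/- + IMQ. The groups overlapped in each comparison. With IMQ its log2 fold change was -0.09 (95% interval -0.29 to 0.10) in WT and -0.05 (-0.24 to 0.15) in Bmal1Mye-/-. A transcript on the opposite strand, Gm43621, shares exon sequence with Ptgs1 and is not counted in the files. The strand setting of the counting is not given in the sources used here, so reads of the pair cannot be told apart.

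Set per length, the 2 cyclooxygenases changed order with IMQ. In untreated WT, Ptgs2 was above Ptgs1 in 5 of 5 libraries, and the ratio of their CPM/kb was 1.08 to 2.05 with a median of 1.41. In untreated Bmal1Mye-/- Ptgs2 was above Ptgs1 in 3 of 5 libraries, with a ratio of 0.553 to 2.77 and a median of 1.32. With IMQ it was above in 0 of 5 libraries of either genotype. The ratio was then 0.00417 to 0.574 (median 0.246) in WT and 0.0113 to 0.164 (median 0.0897) in Bmal1Mye-/-. The COX transcripts of the IMQ-treated libraries were thus mostly Ptgs1.

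**Figure D2:**
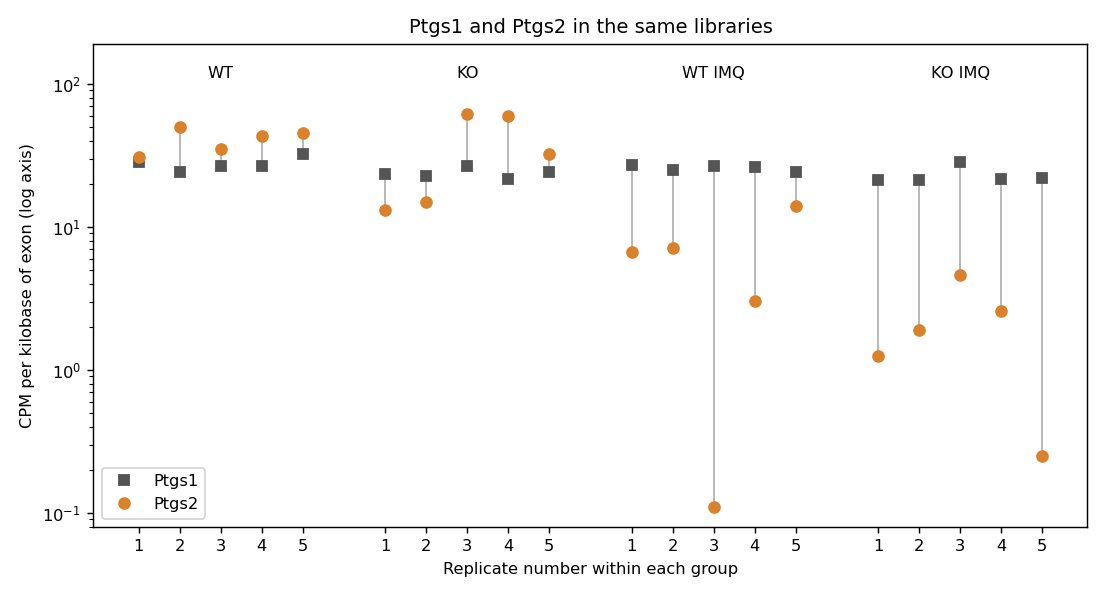
Ptgs1 (squares) and Ptgs2 (circles) in each of the 20 libraries as CPM per kilobase of exon on a log axis, with a line joining the genes of a library. Ptgs2 is above Ptgs1 in 5 untreated WT libraries and 3 untreated Bmal1Mye-/- (KO) libraries, and below it in all 10 IMQ-treated ones, while Ptgs1 stays between 21.3 and 32.1 CPM/kb.

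Alox5, which encodes 5-lipoxygenase, was steady in 3 groups and lower on average in the fourth. In untreated WT it was 782, 745, 756, 818 and 766 CPM, and in WT + IMQ it was 756, 729, 622, 833 and 855 CPM. These ranges overlapped, and the WT log2 fold change was -0.03 (SE 0.169). In untreated Bmal1Mye-/- it was 736, 733, 789, 792 and 725 CPM, and in Bmal1Mye-/- + IMQ it was 287, 656, 599, 746 and 512 CPM. Of the last group, 4 of 5 libraries were below every untreated one and replicate 4 lay among them.

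The log2 fold change of Alox5 with IMQ in Bmal1Mye-/- was -0.43 (SE 0.169) and did not pass the threshold (edgeR quasi-likelihood test, adjusted p = 0.0686). Deviations from the group mean correlated at 0.128 to 0.426 between libraries with the same replicate number in this comparison, beside 0.0728 to 0.384 in WT. The labels do not say that these numbers pair mice, and libraries with unlike numbers were not compared in this way. A block for the replicate number within each genotype was added after seeing the data. With it, Alox5 was called at a log2 fold change of -0.50 (edgeR, adjusted p = 0.0399), which made 2 members called in Bmal1Mye-/- in place of 1. The lowest value, 287 CPM, was that of replicate 1, the library with the lowest summed neutrophil markers. Over all alternatives with all libraries, the adjusted p ranged from 0.0313 to 0.213, and with each library left out from 0.0238 to 0.157.

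Alox5ap, whose product presents arachidonic acid to 5-lipoxygenase, was the most abundant member. It was 1463, 1453, 1350, 1643 and 1517 CPM in untreated WT, and 2513, 2125, 2060, 1919 and 1566 CPM in WT + IMQ. In WT + IMQ, 4 of 5 libraries were above all untreated ones, and replicate 5 was not. The log2 fold change was 0.46 (SE 0.186) and did not pass the threshold (edgeR quasi-likelihood test, adjusted p = 0.152). In Bmal1Mye-/- the values were 1408, 1485, 1528, 1556 and 1259 CPM untreated and 793, 1629, 1628, 2067 and 1949 CPM with IMQ. Here replicate 1 was below and the other 4 were above every untreated library, and the log2 fold change was 0.16 (SE 0.186). The antisense gene Gm19719 shares exon sequence with Alox5ap, with the same limit as for Ptgs1.

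Lta4h, which encodes the hydrolase that makes leukotriene B4, had means of 610 ± 41.2 CPM (SD, n = 5) in untreated WT, 582 ± 60.5 in untreated Bmal1Mye-/-, 648 ± 104 in WT + IMQ and 695 ± 86.7 in Bmal1Mye-/- + IMQ. All ranges overlapped. In Bmal1Mye-/- the log2 fold change with IMQ was 0.26 (95% interval 0.01 to 0.50), which did not pass after adjustment over all genes (edgeR quasi-likelihood test, adjusted p = 0.112). The linear model on log2(CPM + 0.1) did call Lta4h there. Over all alternatives with all libraries, the adjusted p ranged from 0.0309 to 0.184, and with each library left out from 0.0599 to 0.237. In WT the log2 fold change was 0.09 (-0.16 to 0.33).

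Ltc4s, the synthase of leukotriene C4, was counted with 0 to 23 reads per library. It had 3, 13, 6, 1 and 11 reads in untreated WT and 2, 2, 13, 10 and 10 reads in WT + IMQ. In Bmal1Mye-/- it had 18, 12, 0, 17 and 23 reads untreated and 5, 2, 1, 5 and 7 reads with IMQ. The library with 0 reads was the shallowest, where 3 counts, the most that a count of 0 allows, equal 0.101 CPM. In Bmal1Mye-/- the log2 fold change with IMQ was -1.82 (SE 0.731), which was not past the threshold (edgeR quasi-likelihood test, adjusted p = 0.0738) and was called without that library (adjusted p = 0.0333). The antisense gene Gm26542 overlaps its exons.

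Alox15, a lipoxygenase of eosinophils and macrophages in mice, was at 0.269 to 7.28 CPM. Its values were 1.45, 1.87, 0.991, 0.410 and 1.82 CPM in untreated WT and 0.562, 1.77, 1.10, 0.687 and 1.11 CPM in WT + IMQ. They were 6.92, 3.62, 0.269, 0.430 and 1.37 CPM in untreated Bmal1Mye-/- and 2.44, 2.02, 2.66, 1.29 and 7.28 CPM in Bmal1Mye-/- + IMQ. Single libraries of the Bmal1Mye-/- groups were high, and all ranges overlapped. Between the IMQ-treated genotypes the log2 fold change was 1.58 (SE 0.684), not past the threshold (edgeR quasi-likelihood test, adjusted p = 0.237).

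Eosinophil markers were measured beside Alox15. The 8 markers summed to 21.6 to 42.3 CPM in WT + IMQ and 43.1 to 207 CPM in Bmal1Mye-/- + IMQ, against 37.6 to 120 CPM in untreated WT and 48.8 to 140 CPM in untreated Bmal1Mye-/-. Of these, 2 were called higher in Bmal1Mye-/- + IMQ than in WT + IMQ: Epx, eosinophil peroxidase (log2 fold change 2.97), and Prg2, the eosinophil major basic protein (2.54), beside 0.292% of tested genes called in either direction. These 2 made up most of the sum in Bmal1Mye-/- + IMQ, with means of 27.8 and 76.1 CPM. Of the other markers, Siglecf had means of 9.67 CPM in WT + IMQ and 9.34 CPM in Bmal1Mye-/- + IMQ, Ear2 had 5.53 and 4.89 CPM, and Ccr3 had 0.504 and 0.522 CPM. The ribonuclease genes Ear1, with means of 1.67 and 11.1 CPM, and Ear6, with 0.298 and 1.40 CPM, were higher in Bmal1Mye-/- + IMQ by their means but were not called. Between the IMQ-treated genotypes, 6 of the 8 markers had positive log2 fold changes and 2 negative ones. With IMQ, 1 marker was called lower in WT, beside 1.6% of tested genes, and 1 in Bmal1Mye-/-, beside 9.04%. None of the 8 markers was at 0 in any library, and the negative selection was meant to remove cells other than neutrophils. The gene with the highest correlation with Alox15 within groups was Ear1, an eosinophil ribonuclease with close paralogs. Their part in the Alox15 values was not tested.

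Hpgds, the prostaglandin D synthase of mast cells, T cells and some macrophages, had 3 to 65 reads per library. Its means were 0.208 ± 0.102 CPM (SD, n = 5) in untreated WT, 0.352 ± 0.219 in untreated Bmal1Mye-/-, 0.175 ± 0.120 in WT + IMQ and 0.342 ± 0.169 in Bmal1Mye-/- + IMQ. No comparison passed. The basophil and mast cell markers summed to 402 to 1551 CPM, of which Hdc, a gene that neutrophils also express, gave 395 to 1545 CPM. Up to 3 of the 8 markers of that list were at 0 in a library.

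Between genotypes, 0 of 8 members were called without IMQ, where 0.207% of tested genes were called, and 0 of 8 with IMQ, where 0.292% were. DESeq2 also called 0 in either comparison. At an unadjusted p under 0.05 there was 1 member without IMQ, Ptgs1 (log2 fold change -0.22, SE 0.0934), and 2 with IMQ, Alox5 (-0.44, SE 0.169) and Alox15. Over all 14030 tested genes there were 307 without IMQ and 2788 with IMQ. All ranges of the members overlapped between the genotypes, beside 1.52% of tested genes without overlap in untreated and 1.07% in IMQ-treated libraries. For Ptgs2 the log2 fold change was -0.17 (95% interval -1.70 to 1.37) in untreated and -1.54 (-3.13 to 0.04) in IMQ-treated libraries. The second was called only without WT + IMQ replicate 3, the library with the lowest Ptgs2 of all (log2 fold change -1.85, edgeR adjusted p = 0.0371). Leaving out that library also raised the calls over all 14030 tested genes between the IMQ-treated genotypes from 41 to 3093. The interaction of genotype and IMQ gave 0 calls among the members and 0% of all tested genes, in edgeR as in DESeq2, with 721 genes at an unadjusted p under 0.05 in edgeR.

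**Figure D3:**
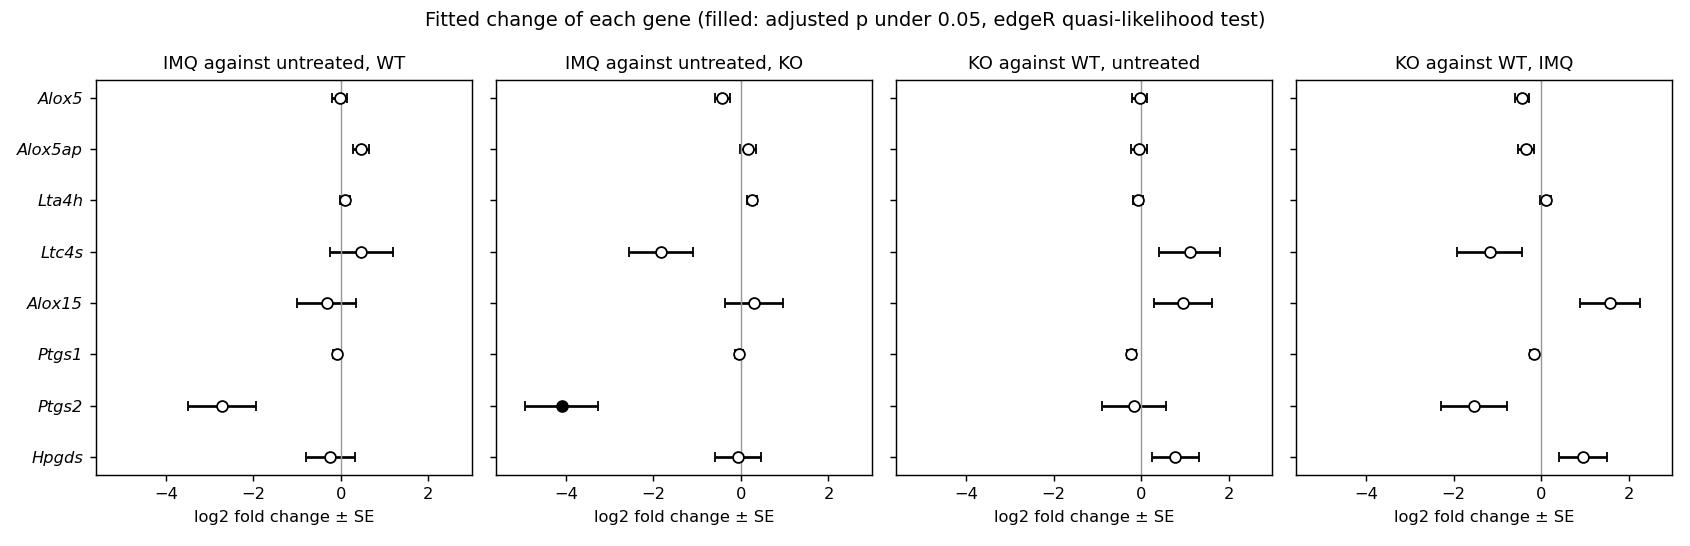
Log2 fold change ± SE of each member from the edgeR fit of all 20 libraries, in 4 panels for IMQ against untreated in WT and in Bmal1Mye-/- (KO) and for Bmal1Mye-/- against WT without and with IMQ, with filled points for an adjusted p under 0.05. The 1 filled point is Ptgs2 with IMQ in Bmal1Mye-/- at -4.10, and the widest bars belong to Ptgs2 and to the low genes Ltc4s, Alox15 and Hpgds.

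The rest of the pathway was followed with a list of 56 further genes, of which 43 were tested. With IMQ, 3 were called higher and 1 lower in WT, and 5 higher and 8 lower in Bmal1Mye-/-, where the share over all genes was 14.4% higher and 9.04% lower. In WT the shares over all genes were 2.34% higher and 1.6% lower. The median log2 fold change of the list was 0.04 in WT and -0.19 in Bmal1Mye-/-. The WT count depended on single libraries: leaving out WT + IMQ replicate 5 gave 12 calls, and leaving out any of untreated WT replicates 1, 2, 3 or 4 gave 0. With each of the 10 libraries of a comparison left out in turn, Dpep2, Dpep1, Ptges2, Ptgr1 and Cysltr2 were called all 10 times in Bmal1Mye-/-, and the 4 genes called in WT were called 1 to 5 times. In Bmal1Mye-/-, Pla2g6, Ptger2, Ptges3 and Cysltr1 were called 1, 2, 3 and 5 times, and the other 4 were called 8 or 9 times. In the genotype comparisons and the interaction, edgeR called 0 of the 43, with 1, 6 and 1 at an unadjusted p under 0.05 in untreated libraries, IMQ-treated libraries and the interaction. Over all 14030 tested genes there were 307, 2788 and 721. DESeq2 called 1 of the 43 between the IMQ-treated genotypes and 0 in the untreated comparison and the interaction.

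Among the genes that act after the members, Dpep2, a dipeptidase that turns leukotriene D4 into E4, had the largest positive change. It was 0.379 to 0.788 CPM in untreated WT and 3.64, 3.69, 15.1, 0.925 and 0.595 CPM in WT + IMQ, so that replicate 5 stayed within the untreated range. In Bmal1Mye-/- it was 0.511 to 0.745 CPM untreated and 8.54, 3.77, 1.05, 6.11 and 10.4 CPM with IMQ, with no overlap. The log2 fold change was 2.99 in WT and 3.17 in Bmal1Mye-/- (edgeR quasi-likelihood test, adjusted p = 0.0256 and 0.00746). Its relative Dpep1 fell by 1.85 in WT and by 2.15 in Bmal1Mye-/- on the log2 scale. Ggt1, a gamma-glutamyltransferase that acts on leukotriene C4, was called higher in WT with a log2 fold change of 1.32. In Bmal1Mye-/- its log2 fold change was 0.71 and was not called. Cyp4f18, the cytochrome P450 that inactivates leukotriene B4, fell by 1.22 on the log2 scale in Bmal1Mye-/- from 432 to 601 CPM untreated to 99.2 to 365 CPM with IMQ, and its WT log2 fold change of -0.48 was not called.

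The terminal prostanoid synthases did not move as a group. Ptges2, a prostaglandin E synthase, rose in both genotypes: it was 21.0 to 23.3 CPM in untreated WT and 26.9 to 42.6 CPM in WT + IMQ (log2 fold change 0.55), and 20.5 to 25.1 CPM and 25.4 to 40.1 CPM in Bmal1Mye-/- (0.63). Neither pair of ranges overlapped. Tbxas1, thromboxane A synthase, was 28.6 to 36.3 CPM in untreated WT and 8.22 to 25.6 CPM in WT + IMQ (-0.89, adjusted p = 0.0578 in edgeR, not called). In Bmal1Mye-/- it fell by 0.92 on the log2 scale, from 26.2 to 32.5 CPM to 6.85 to 21.8 CPM. Ptgis, prostacyclin synthase, also fell in Bmal1Mye-/-, by 1.79 on the log2 scale from a level of 0.606 to 1.67 CPM. Ptges3, which has a processed pseudogene, rose there by 0.39.

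Of the receptors, Ltb4r1 for leukotriene B4 (322 CPM/kb) and Fpr2, which binds lipoxin A4 and formyl peptides (446 CPM/kb), were the most abundant and were not called in any comparison. Ltb4r1 had log2 fold changes with IMQ of 0.33 in WT and 0.18 in Bmal1Mye-/-. Of the receptors for cysteinyl leukotrienes, Cysltr2 fell in Bmal1Mye-/- by 2.29 on the log2 scale. Cysltr1 was called higher there with a log2 fold change of 1.98, with replicate 1 at 7.65 CPM. The other 4 treated libraries were at 0.434 to 1.70 CPM, beside 0.374 to 1.08 CPM untreated, and without replicate 1 the log2 fold change was 0.68 (edgeR, adjusted p = 0.332). The prostanoid receptors Ptger2 for prostaglandin E2 and Ptgdr for prostaglandin D2 fell in Bmal1Mye-/- by 0.84 and 2.59 on the log2 scale. Ptger1 (31.4 CPM/kb) and Ptgir (21.8 CPM/kb), the most abundant prostanoid receptors, were not called.

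Upstream of the members, Pla2g6, a calcium-independent phospholipase A2, fell by 0.40 on the log2 scale in Bmal1Mye-/-, and 0 of 5 tested phospholipases were called in WT. Pla2g4a, the cytosolic phospholipase that releases arachidonic acid, had log2 fold changes of -0.31 in WT and -0.06 in Bmal1Mye-/- and was not called. None of the 3 reacylation genes was called, with Mboat7 (33.0 CPM/kb) the most abundant. Ptgr1, a reductase that inactivates leukotriene B4 and prostaglandins, rose in Bmal1Mye-/- by 0.99 on the log2 scale, from 16.7 to 24.8 CPM to 31.6 to 62.6 CPM, and its WT log2 fold change was 0.46, not called. Platelet lipoxygenase, Alox12, was not called (-2.29 in WT, -1.44 in Bmal1Mye-/-).

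**Figure D4:**
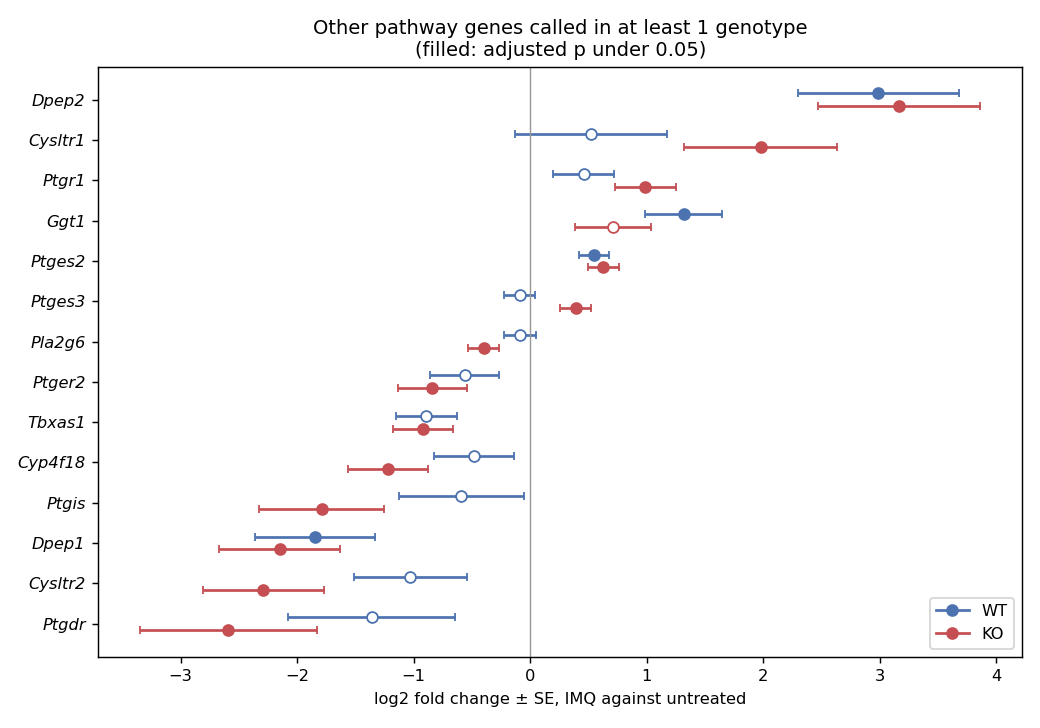
Log2 fold change ± SE with IMQ in WT (blue) and Bmal1Mye-/- (KO, red) of the 14 other pathway genes called in at least 1 genotype, with filled points for an adjusted p under 0.05 in the edgeR fit. Dpep2, Dpep1 and Ptges2 are filled in both genotypes, and Dpep2 has the largest positive values, 2.99 and 3.17.

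For each member, the 3 tested genes with the most similar pattern were taken from the Pearson correlation of log2 CPM over the 20 libraries after removal of group means. All genes of a library share its depth and cell composition, which differ between libraries, and the correlations are descriptions. For Ptgs2 they were Hcar2, a receptor for hydroxybutyrate and niacin (r = 0.935), Il1b, the cytokine IL-1 beta (0.924), and Nfkbid, a nuclear inhibitor of NF-kappaB (0.904). In WT + IMQ replicate 3, which had the lowest Ptgs2, Hcar2 was 3.85 CPM, Il1b 8.97 CPM and Nfkbid 22.1 CPM, each also the lowest of the 20. All 3 were called lower with IMQ in Bmal1Mye-/-, by 2.33, 2.02 and 0.782 on the log2 scale, beside 9.04% of all tested genes. In WT their log2 fold changes were -1.08, -1.03 and -0.461, and none was called. The interaction of genotype and IMQ was not called for any of them.

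Alox5 was most like Pygl, the liver-type glycogen phosphorylase (0.960), Kiss1r (0.957) and Gm10814 (0.953). Alox5ap was most like Limk2 (0.943), Oaz2 (0.942) and Gpi1, glucose-6-phosphate isomerase (0.937). Lta4h was most like Tmem216 (0.919) and the secondary granule genes Camp (0.904) and Ngp (0.866). Ptgs1 was most like Eif1b (0.790), Itfg1 (0.788) and Gna15 (0.785). The low members had correlations of 0.785 to 0.841 with their nearest genes, Ear1, Hr and Rabl2 for Alox15, Bbs12, Dpf3 and Cysltr2 for Ltc4s, and P3h2, Slc26a7 and Tmem91 for Hpgds.

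**Figure D5:**
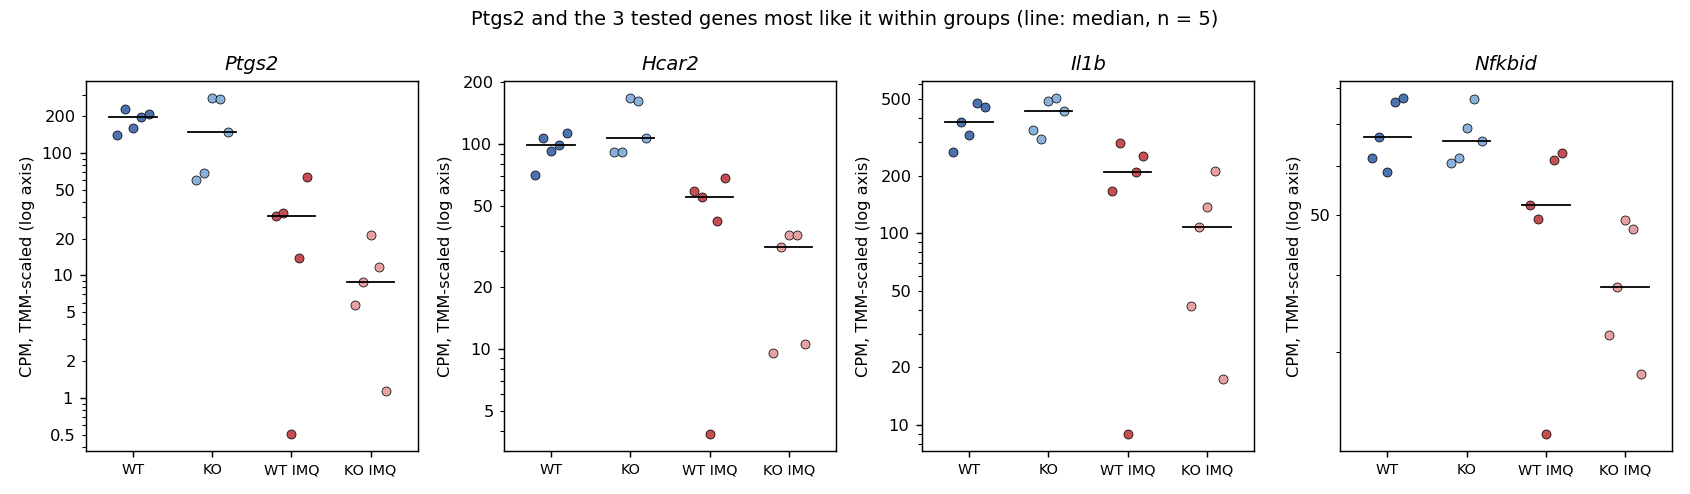
Ptgs2 and the 3 genes most like it within groups, as CPM after TMM scaling on log axes for each library of the 4 groups (KO: Bmal1Mye-/-), with a line at the median of 5. WT + IMQ replicate 3 is the lowest point in all 4 panels, with 0.507 CPM for Ptgs2 and 8.97 CPM for Il1b.

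The members lie on 6 chromosomes of mm10. Alox5 (chr6:116410077-116461178) and Hpgds (chr6:65117293-65144908) are on the minus strand of chromosome 6, and Ltc4s (chr11:50236461-50238616) and Alox15 (chr11:70344152-70352031) on the minus strand of chromosome 11. Alox5ap (chr5:149264767-149288153), Lta4h (chr10:93453411-93484875), Ptgs1 (chr2:36230426-36252272) and Ptgs2 (chr1:150100031-150108227) are on plus strands. These spans are those of whole genes in GENCODE vM21, and the counts are over exons.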

How the data were processed

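Bone marrow neutrophil RNA was measured in 20 libraries of 4 groups, assigned from the genotype, treatment and replicate number in the labels. The deposited values are raw counts of reads per gene, which the authors made from poly(A) libraries (NEBNext Ultra II) aligned to mm10, without normalization. The submitters' processing notes name STAR 2.7.8a and HTSeq 2.0.1, whereas the study's methods name TopHat and Read 1 only. The annotation, the strand setting and the sequencer of each library, of 2 models named, are not given in the sources used here. Of the reads a file accounts for, 37.4% to 41.9% were on genes and 51.9% to 57.8% on no feature, and the latter were left out. At 30782166 or more reads per library counting error is small except for Ltc4s, Hpgds and Alox15, and for Ptgs2 in the 2 IMQ-treated libraries with 29 and 87 reads, and floors cover counting error only.

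Counts were fitted in R 4.3.3 with edgeR 4.0.16 (filterByExpr, TMM, quasi-likelihood F test, 16 residual degrees of freedom), with 1 model of the 4 groups and Benjamini-Hochberg adjustment over 14030 genes at 0.05. Standard errors came from the F statistic, and 95% intervals from these and the t distribution with the fit's total degrees of freedom. CPM/kb used exon lengths of GENCODE vM21 (GRCm38). The fit was tested on simulated data. No library duplicated another of its group: chi-square per degree of freedom was 16.9 or more in the 40 pairs within groups. Pairs across groups were not compared in this way. The members and lists were chosen with earlier results of these data known. Pathway genes are named if called in a pairwise comparison. Some, but not all, of the 3 most abundant of each role are named as well. Likeness genes are the 3 nearest of each member. The marker lists held neutrophil, neutrophil precursor, eosinophil, basophil and mast cell, monocyte, marrow macrophage, platelet, erythroid, B lineage and T and NK genes.

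Pairing of replicate numbers was checked by correlating residuals of same-numbered libraries. Between untreated and IMQ-treated Bmal1Mye-/- all 5 correlations were above 0.1 (0.128 to 0.426). In WT they were 0.0728 to 0.384, and between genotypes they reached -0.497. Libraries with unlike numbers were not correlated for comparison, so these values cannot show whether the numbers pair mice. The main fit used no pairs in either genotype, and replicate numbers entered only the alternatives with a block. Alternatives were RLE factors, DESeq2 1.42.0, a linear model on log2(CPM + 0.1) after the study's analysis of variance, no filter, at least 10 counts in every library, a fit of the 2 groups compared, a replicate block, and each library left out. The block within each genotype and the leave-one-out values of single pathway genes were added after seeing the data. A joined table of the same counts was not used.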

Additional observations from a re-analysis of the deposited data

Results flagged for a closer look

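Each of the 8 genes was checked in each of the 4 groups for a library far from the other 4, by the gap to its neighbour as a share of the range (threshold 0.71). Chance flags about 1 in 20 groups, and 2 of 32 were flagged. Alox15 in Bmal1Mye-/- + IMQ replicate 5 was 7.28 CPM, with the next library at 2.66 CPM. Ptgs1 in Bmal1Mye-/- + IMQ replicate 3 was 109.9 CPM, with the next at 86.0 CPM.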

How the results depend on the processing

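Ptgs2 with IMQ in Bmal1Mye-/- was called under every alternative run, with log2 fold changes of -4.61 to -3.79. Members called in WT numbered 1 in place of 0 with DESeq2, the linear model and the block within each genotype, each time Ptgs2 (adjusted p 0.0105, 0.0469 and 0.0475), and 0 to 1 with a library left out. In Bmal1Mye-/- they numbered 2 with DESeq2 and the within-genotype block, and 3 with the linear model (Ptgs2, Alox5 and Lta4h). With a library left out they numbered 1 to 2 (2 without untreated replicate 3 or IMQ replicate 4). Between the IMQ-treated genotypes they numbered 0 to 1.

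Pathway genes called in WT numbered 1 with the replicate block, 1 in the fit of 2 groups and 7 with DESeq2, against 4, and 0 to 12 with a library left out. In Bmal1Mye-/- the range was 6 to 14 against 13, with 6 without untreated replicate 4 and 8 without IMQ replicate 5. Between the IMQ-treated genotypes DESeq2 called 1 and leaving out a library gave 0 to 4.

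Over all genes, WT calls numbered 190 with the replicate block, 326 without a filter, 147 in the fit of 2 groups and 1480 with DESeq2, against 554, and 56 (without untreated replicate 2) to 2045 (without IMQ replicate 5) with a library left out. In Bmal1Mye-/- they were 1612 to 4042 with a library left out, against 3292. Genotype calls were 63 in untreated libraries in the fit of 2 groups, against 29. In IMQ-treated libraries they were 14 in that fit, 311 with DESeq2 and 21 to 3093 (without WT + IMQ replicate 3) with a library left out, against 41. The interaction gave 0 to 1. The linear model uses no TMM factors and moved the median of all genes to 0.22 between the IMQ-treated genotypes. The cause of these differences was not tested.

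The main fit did not take the replicate numbers of either genotype as pairs. The block changed no call other than those given here and in the report.

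Directions turned only for changes that were not called. Hpgds in Bmal1Mye-/- was 0.0109 with the within-genotype block and 0.0995 with the linear model, and -0.28 to 0.35 with a library left out. The linear model gave 0.0643 for Ptgs1 in Bmal1Mye-/- and 0.0124 between the IMQ-treated genotypes. With a library left out, log2 fold changes were -0.0731 to 0.0321 for Alox5 and -0.71 to 0.0298 for Hpgds in WT, -0.26 to 1.11 for Alox15 in Bmal1Mye-/-, and -0.0693 to 0.00928 for Alox5ap and -0.44 to 0.0482 for Ptgs2 between untreated genotypes. In the interaction they were -0.0447 to 0.0947 for Ptgs1 and -0.0959 to 0.65 for Hpgds.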

Other observations

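The remaining marker lists describe other marrow cells in the libraries. The 7 neutrophil precursor markers, which include the azurophil granule genes Mpo and Elane, summed to 461 to 1508 CPM in untreated WT and 489 to 2186 CPM in WT + IMQ, and none was called. In Bmal1Mye-/- they summed to 573 to 1309 CPM untreated and 1056 to 3151 CPM with IMQ, with 2 of 7 called higher in edgeR. With IMQ in Bmal1Mye-/-, 14.4% of all tested genes were called higher and 9.04% lower, and in WT 2.34% were called higher and 1.6% lower. Erythroid markers summed to 6.65 to 171 CPM over the 20 libraries, with 1 of 3 tested called higher with IMQ in WT. B lineage markers summed to 4.56 to 23.3 CPM, with 2 of 6 called lower with IMQ in Bmal1Mye-/-. T and NK markers summed to 6.04 to 24.4 CPM, with 1 of 4 tested called lower there. Marrow macrophage markers summed to 37.4 to 96.3 CPM, the highest in Bmal1Mye-/- + IMQ replicate 1, with 1 of 8 called higher with IMQ in Bmal1Mye-/-.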
